A study of Mus musculus with 48 samples.

Results

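O4+ cells taken from the brains of male swiss pups at P10 were compared between 6 samples from pups injected with IL1B and 6 samples from pups injected with PBS, 12 of the 48 arrays of the series. The samples were chosen by their labels, O4+ cells at the P10 stage, and every probe besides the array's controls was tested. All pups were injected intraperitoneally from P1 to P4 and once at P5, with PBS or with IL1B at 10 ng/g, so that P10 lies 5 days after the last injection. The paper of the series names the strain OF1, cortices as the tissue and pooling of tissue, and both sources state that O4+ cells and then CD11B+ microglia were sorted in sequence from the same animals by magnetic beads. Their description field names P5, in conflict with the P10 of title, source name and stage, and the latter was followed. The labels do not say which litters or pools the samples came from, so the p-values measure the spread between these samples.

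O4 is a surface antigen carried by late oligodendrocyte progenitors (OPCs) and immature oligodendrocytes, the stages that leave the cell cycle and then build the myelin sheath around axons. Interleukin 1 beta (IL1B) is a cytokine that acts through its receptor on NF-kappaB, and systemic IL1B given to newborn mice is used as a model of the white matter injury of preterm birth, in which OPC maturation is delayed. Interferons act in parallel through STAT and IRF transcription factors, which switch on antigen presentation genes and a family of GTPases that attack microbes inside cells. The question here is what remained different in the O4+ fraction once the injections had ended.

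Of the 55681 probes, 1388 were higher (2.49%) and 788 lower (1.42%) with IL1B, by limma's test at a Benjamini-Hochberg adjusted p under 0.05 and a more than 1.5-fold ratio between the medians of the groups. With 1 probe kept for each of 22328 genes, the one with the most signal over the O4+ arrays, 809 genes were higher (3.62%) and 381 lower (1.71%), and the median change over all genes was -0.01 on the log2 scale. The rises held genes of antigen presentation, interferon-inducible GTPases, chemokines and the mitotic machinery, and the falls held genes of myelin and of maturing oligodendrocytes. When arrays were instead scaled to their 75th percentiles, 1536 probes were higher and 2058 lower and the median of all probes was -0.19, so that rises made up 42.7% of the calls against 63.8%. The deposited matrix values gave 1685 and 1568, a share of 51.8%.

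The arrays differed in ways that touch every count below. The raw 75th percentile of intensity lay between 458 and 562 on the PBS arrays and between 607 and 838 on the IL1B arrays, and 56.9% to 59.8% of the probes in PBS against 58.9% to 62.9% in IL1B were well above background. The arrays lay on 3 slides. The first slide held 5 PBS and 2 IL1B arrays, the second held 3 IL1B arrays and no PBS array of O4+ cells, and the third slide, scanned on another date, held 1 array of each group. With the slide as a fixed block 917 probes were higher and 641 lower, and without the 3 IL1B arrays of the second slide 215 were higher and 80 lower.

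The sorted fraction was checked against marker genes. All 22 progenitor genes had more signal in PBS O4+ cells than in PBS CD11B+ cells of the same age, and 17 of 19 myelin sheath genes did, by a median of 5.28 on the log2 scale. Microglial markers were also present: all 17 were above background on all 6 PBS arrays, although 15 of them had less signal than in CD11B+ cells, by a median of 4.65 over the list. Among them 4 rose with IL1B, including Trem2 (0.76), Tyrobp (0.74) and Aif1 (0.70), and none fell, with a median change of 0.43 over the list. Both other scalings, by 75th percentile and by array median (the deposited matrix), gave 3 rises and 1 fall, a slide block left 2 rises, and none remained without the 3 IL1B arrays of the second slide. Their mean level lay between 12.06 and 12.70 on the PBS arrays and between 12.37 and 12.96 on the IL1B arrays, with overlap. Cx3cr1 changed by 0.43 (adjusted p = 0.139), P2ry12 by 0.14 (adjusted p = 0.818) and Tmem119 by 0.05 (adjusted p = 0.881). In CD11B+ cells at P10 the median change of these markers was -0.13. Of 9 markers of neutrophils and monocytes 7 rose, with a median of 1.82, but only 3 were above background on all PBS arrays. That median ran from 0.45 to 1.95 over the alternatives of processing. Of 10 astrocyte markers 4 rose, among them Aqp4 and Aldh1l1, and all 10 changes were positive, with a median of 0.54. Their mean level ran from 9.90 to 10.27 in PBS and from 10.37 to 10.77 in IL1B, without overlap. None of 14 endothelial markers passed the test in either direction. The part of these cells in the results below was not tested, except where a value is given, and in such bulk samples fewer cells of a type and less RNA per cell cannot be told apart.

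The promoters of the GTPase genes are shown because most of those searched share a short sequence. Genes that rose were not compared with genes that did not. RefSeq promoters (GRCm38.p6) were found for 10 of the 20 GTPase genes, and the 250 bases before each start were searched on both strands for GAAA followed by any 2 bases and a second GAAA, the core letters of the interferon-stimulated response element. It was present in 9 of 10 (90%), against 3.46% of 27025 promoters. Of 25 promoters of type I interferon antiviral genes 44% held it, and of 18 promoters of MHC class I and immunoproteasome genes 11.1% did. TTCNNNGAA, the letters of the gamma-activated site bound by STAT factors, was in 60% of the GTPase promoters and in 8.13% of all. The last 100 bases before the start are given on the coding strand with the response element in capitals, and Ifi47 is included as the promoter without a match. Overlapping matches are run together.
Gbp2, chr3:142620563-142620662, plus strand: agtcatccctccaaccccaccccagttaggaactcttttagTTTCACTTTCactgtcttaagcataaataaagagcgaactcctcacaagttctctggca
Gbp3, chr3:142559944-142560043, plus strand: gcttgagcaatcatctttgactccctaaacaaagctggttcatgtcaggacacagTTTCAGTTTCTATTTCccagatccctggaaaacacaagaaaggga
Irgm1, chr11:48871421-48871520, minus strand: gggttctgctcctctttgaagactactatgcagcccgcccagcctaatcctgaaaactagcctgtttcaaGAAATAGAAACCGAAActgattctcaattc
Igtp, chr11:58199456-58199555, plus strand: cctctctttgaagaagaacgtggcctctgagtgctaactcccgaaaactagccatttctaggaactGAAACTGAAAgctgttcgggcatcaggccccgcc
Tgtp2, chr11:49064213-49064312, minus strand: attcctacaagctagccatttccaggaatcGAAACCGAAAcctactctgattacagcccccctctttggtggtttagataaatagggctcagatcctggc
Ifi47, chr11:49076487-49076586, plus strand: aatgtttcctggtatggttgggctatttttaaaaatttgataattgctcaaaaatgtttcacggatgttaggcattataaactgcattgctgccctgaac

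Promoters of mitosis genes are shown as those of the group with the most rises. The CCAAT box, searched as CCAAT on both strands, was present in 30 of 40 of them (75%) against 37.5% of all promoters. It was not particular to mitosis genes, since it was in 94.1% of 17 cholesterol synthesis promoters, in all 7 of MHC class II and in 66.7% of 18 of MHC class I. TTTGAA, the letters of the cell cycle homology region, was in 35% of them against 18.3%, and TTTNNCGC, the letters of an E2F site, was in 31% of 29 DNA replication promoters against 4.94%. These matches describe letters in a window and are no evidence of binding. The last 150 bases before the start follow for 4 of the mitosis genes described below, with the CCAAT box in capitals.
Mki67, chr7:135716380-135716529, minus strand: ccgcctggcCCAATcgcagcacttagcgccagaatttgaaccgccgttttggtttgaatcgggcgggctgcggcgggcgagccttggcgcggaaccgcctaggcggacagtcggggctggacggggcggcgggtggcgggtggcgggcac
Top2a, chr11:99024190-99024339, minus strand: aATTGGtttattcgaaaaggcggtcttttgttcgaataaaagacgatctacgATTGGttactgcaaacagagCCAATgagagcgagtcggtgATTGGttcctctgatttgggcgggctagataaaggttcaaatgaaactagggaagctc
Ccnb1, chr13:100786487-100786636, minus strand: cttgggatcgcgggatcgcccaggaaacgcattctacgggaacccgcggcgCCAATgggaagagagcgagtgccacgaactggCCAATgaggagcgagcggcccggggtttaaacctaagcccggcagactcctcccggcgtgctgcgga
Ccnb2, chr9:70421555-70421704, minus strand: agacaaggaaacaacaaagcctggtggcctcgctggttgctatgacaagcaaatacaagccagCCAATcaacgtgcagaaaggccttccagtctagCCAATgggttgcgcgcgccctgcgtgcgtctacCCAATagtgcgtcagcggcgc

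**Figure D1:**
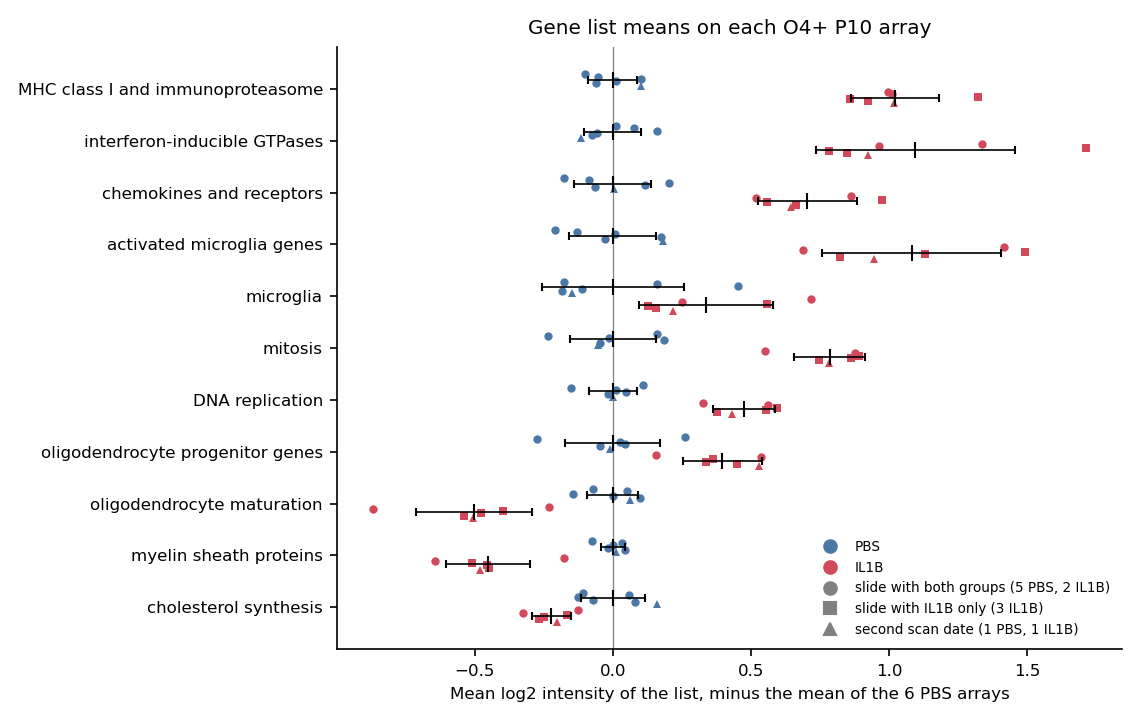
Mean log2 intensity of 11 gene lists on each of the 12 arrays, set to 0 at the mean of the 6 PBS arrays; each point is 1 array, its shape gives the slide, and the bars give the mean and 1 SD of 6 arrays. All 6 IL1B arrays lie above all PBS arrays for MHC class I, the GTPases, chemokines, activated microglia genes, mitosis and DNA replication, and all 6 lie below for myelin sheath, oligodendrocyte maturation and cholesterol synthesis, whereas microglial markers overlap.

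Genes of cell division rose together. Of 50 mitosis genes 42 rose and none fell, with a median change of 0.84 on the log2 scale, and in 40 of them every IL1B array lay above every PBS array, against 8.88% of all genes whose groups did not overlap in either direction. The mean level of the list ran from 8.28 to 8.70 on the PBS arrays and from 9.06 to 9.40 on the IL1B arrays. Mki67, which encodes the proliferation antigen Ki-67, ran from 11.27 to 11.76 with a median of 11.53 in PBS and from 12.35 to 12.65 with a median of 12.52 in IL1B. Its log2 change was 0.97 (SE 0.09; adjusted p = 0.000714), with no overlap. Top2a, the topoisomerase that untangles sister chromatids, ran from 8.29 to 8.72 (median 8.40) in PBS and from 9.18 to 9.53 (median 9.36) in IL1B, a change of 0.88 (adjusted p = 0.000778). The cyclins that drive entry into mitosis moved likewise. Ccnb1 ran from 9.59 to 10.47 (median 9.98) in PBS and from 10.73 to 11.30 (median 11.17) in IL1B, a change of 1.07 (adjusted p = 0.00196). Ccna2 changed by 1.01 and Ccnb2 by 0.84, both without overlap. Genes of the spindle checkpoint (Bub1, 0.84; Bub1b, 0.99), spindle motors (Kif11, 0.92; Kif20a, 0.76), mitotic kinases (Plk1, 0.82; Aurka, 0.71) and the mitotic transcription factor Foxm1 (0.70) were all among the 42. The probe of the kinase Cdk1 changed by 0.67 and did not pass (adjusted p = 0.38), with PBS arrays from 6.26 to 8.51.

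Of 35 DNA replication genes 13 rose and none fell, with a median of 0.46, and the mean level lay between 9.46 and 9.72 in PBS and between 9.94 and 10.21 in IL1B. The highest was Rrm2, a subunit of ribonucleotide reductase, from 10.61 to 11.27 (median 10.98) in PBS and from 11.79 to 12.15 (median 12.02) in IL1B, a change of 1.00 (adjusted p = 0.00125) without overlap. Members of the MCM helicase, which opens DNA at origins, rose by 0.72 (Mcm5) and 0.73 (Mcm6), and the licensing factor Cdt1 by 0.81. Of 25 genes of G1 cyclins and cyclin-dependent kinase inhibitors 7 rose. These included Ccnd1 (0.73) and Ccnd2 (0.66), which start the cycle, as well as Cdkn2c (0.68) and Cdkn2a (0.61), which block it.

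This pattern differed by age and by cell type, but the groups compared were also spread unevenly over slides. Of the O4+ arrays at P5, 1 slide held 4 PBS and 1 IL1B, and another held 4 IL1B and no PBS. Of the CD11B+ arrays at P10, 1 slide held 4 PBS and no IL1B, and another held 2 PBS and 5 IL1B. With the slide as a block, the probes differing between ages went from 7327 to 3898, and between cell types from 4209 to 2324. At P5, 2 h after the last injection per the labels (the paper's methods give a longer interval), none of the 50 mitosis genes was higher and 3 were lower with IL1B (Cenpf, Kif20a and Ncapg), with a median of -0.28, where 4.94% of all genes were higher and 1.80% lower. The response at P10 exceeded that at P5 in 47 of 50 genes by limma's interaction test at an adjusted p under 0.05, against 12% of all genes. For Mki67 the change was -0.25 at P5, and the difference between ages was 1.22 (adjusted p = 1.1e-06). In CD11B+ cells at P10 none of the 50 passed in either direction, where 1.46% of all genes were higher and 1.23% lower, the median was 0.12, and the response in O4+ cells was larger in 44 of 50, against 6.19% of all genes. All 50 mitosis genes had more signal in PBS CD11B+ cells than in PBS O4+ cells, by a median of 2.34. With the slide as a block 40 of 50 rose, and the median was 0.74 within the first slide and 0.89 within the third slide. Without the 3 IL1B arrays of the second slide 18 of 50 rose, and the median was 0.79.

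Antigen presentation through MHC class I rose as a group. Of 26 measured genes 18 rose and none fell, with a median of 1.10, and the mean level ran from 9.31 to 9.52 in PBS and from 10.27 to 10.74 in IL1B. B2m, the light chain shared by class I molecules, ran from 11.76 to 12.67 (median 12.23) in PBS and from 13.37 to 14.20 (median 13.85) in IL1B, a change of 1.58 (SE 0.17; adjusted p = 0.00092). The heavy chain H2-K1 ran from 11.47 to 12.22 (median 11.93) in PBS and from 13.07 to 13.72 (median 13.44) in IL1B, a change of 1.52 (adjusted p = 0.000778). Neither overlapped. Among the parts that make and load peptides, the immunoproteasome subunits Psmb8 and Psmb9 rose by 1.61 and 1.89 and the transporters Tap1 and Tap2 by 1.27 and 1.09. Nlrc5, the transactivator of class I genes, rose by 3.05 (adjusted p = 0.000561), though 1 of 6 PBS arrays was above background. H2-Q8 rose 5.69-fold by the ratio of medians, and H2-Q2, H2-Q5, H2-Q6, H2-Q7 and H2-Q10 by 0.82 to 1.17 on the log2 scale; these paralogs are near-identical in sequence, so that a probe of one may read another. Second probes did not always move alike: Psmb9 has 2 probes, of which 1 was called and the other changed by 0.11.

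Class I genes had moved at the earlier age and in microglia too. At P5 16 of 26 were higher with a median of 0.72, against 4.94% of all genes. In CD11B+ cells at P10 16 were higher with a median of 1.00, against 1.46% of all genes. The interaction with age passed in the positive direction for 2 genes and in the negative for 1, against 12% and 6.93% of all genes. That with cell type passed in the positive direction for 5, against 6.19% of all genes. B2m was among those 5, with a change of 0.45 in CD11B+ cells and a difference of 1.20 (adjusted p = 0.0013). In PBS cells 24 of 26 had more signal in CD11B+ than in O4+ cells, by a median of 2.36. With the slide as a block 15 of 26 rose, and 11 did so without the 3 IL1B arrays of the second slide. For MHC class II, which is found on professional antigen-presenting cells, 2 of 10 genes rose, against 3.62% of all genes. Cd74, the invariant chain, ran from 5.60 to 6.69 (median 6.22) in PBS and from 8.33 to 10.81 (median 10.11) in IL1B, 14.9-fold by the ratio of medians and the largest rise among the genes named by rank (adjusted p = 0.000818). H2-Eb1 rose 4.58-fold (adjusted p = 0.00272). Both had more signal in CD11B+ cells, by 5.94 and 3.84 on the log2 scale.

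**Figure D2:**
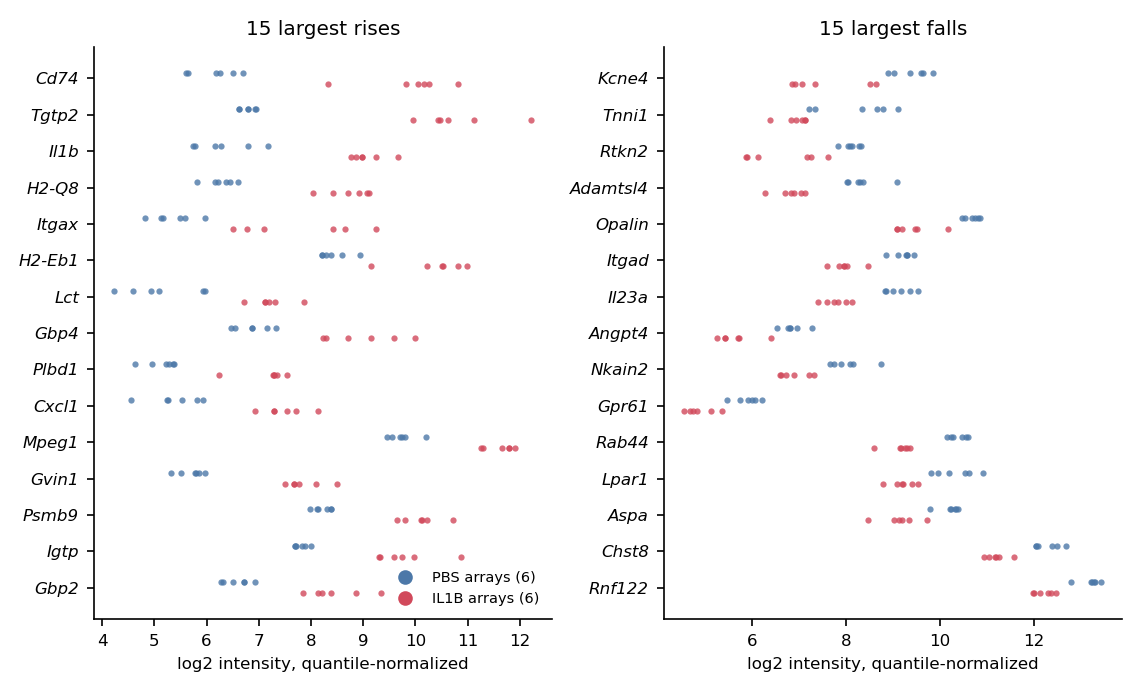
Quantile-normalized log2 intensity on each array for the 15 genes with the largest rises and the 15 with the largest falls by the ratio of medians, among called genes above background on all 12 arrays whose groups did not overlap; each point is 1 of 6 arrays of a group. Cd74 leads the rises at 14.9-fold and Kcne4 the falls at 4.85-fold.

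Interferon-inducible GTPases rose next. Of 20 measured genes 12 rose and none fell, with a median of 0.99, and the mean level ran from 6.80 to 7.07 in PBS and from 7.69 to 8.62 in IL1B. Tgtp2 ran from 6.61 to 6.95 (median 6.79) in PBS and from 9.95 to 12.22 (median 10.55) in IL1B, 13.5-fold by medians (adjusted p = 0.0005), although it has a close paralog that its probe may read and its second probe changed by 0.78 and was not called. The immunity-related GTPase Igtp ran from 7.69 to 8.00 (median 7.77) in PBS and from 9.30 to 10.88 (median 9.67) in IL1B, 3.73-fold. The guanylate-binding protein Gbp2 ran from 6.28 to 6.93 (median 6.61) and from 7.85 to 9.33 (median 8.29), 3.21-fold. No array of one group reached the other for these genes. Gbp3, Gbp4 and Gbp7, Irgm1 and Irgm2, and Ifi47, whose promoter above lacks the response element, rose by 0.91 to 2.12. Gbp8 was called, but no PBS array and 1 IL1B array were above background, so no fold is given.

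The GTPases had risen more at P5, where 17 of 20 were higher with a median of 1.86, against 4.94% of all genes. The response at P10 was smaller in 10 of 20 by the interaction test and larger in none, against 6.93% of all genes with a smaller or more negative response. Gbp2 changed by 4.18 at P5 and by 1.88 at P10, a difference of -2.29 (adjusted p = 0.00162), and Ifi47 by 3.30 and 1.38 (difference -1.91; adjusted p = 0.00058). In CD11B+ cells at P10 6 of 20 were higher, against 1.46% of all genes, with a median of 0.58. Responses differed for 2 genes each way, against 6.19% of all genes more positive and 4.59% more negative in O4+ cells. In PBS cells 15 of 20 GTPase genes had more signal in CD11B+ than in O4+ cells, by a median of 2.50. With the slide as a block 12 of 20 rose, and 9 did so without the 3 IL1B arrays of the second slide. Normexp background correction lowered the median to 0.58, with 9 genes rising.

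Among other interferon targets, 11 of 34 type I interferon antiviral genes rose, with a median of 0.49 over the list, among them Rsad2 (1.04), Ifi44 (1.23) and Zbp1 (1.28), but 2 did so with the slide as a block. In PBS cells 30 of 34 antiviral genes had more signal in CD11B+ than in O4+ cells, by a median of 2.29. Of 21 genes of interferon signalling, the upstream arm, 2 rose, against 3.62% of all genes. Irf1, an early interferon- and NF-kappaB-driven factor, ran from 10.31 to 10.55 (median 10.44) in PBS and from 10.86 to 11.69 (median 11.27) in IL1B, a change of 0.82 (adjusted p = 0.00333) with no overlap. Irf8, a factor of the myeloid lineage, rose by 0.76 (adjusted p = 0.0134), and its signal was higher in CD11B+ cells by 5.24. The probe of Irf7 changed by 1.09 and did not pass (adjusted p = 0.0582).

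In the interleukin 1 and NF-kappaB group 9 of 27 genes rose, with a median of 0.20. The cytokine genes led. Il1b itself ran from 5.74 to 7.18 (median 6.22) in PBS and from 8.76 to 9.67 (median 8.97) in IL1B, 6.74-fold (adjusted p = 0.000778), without overlap. Il1a rose by 1.95, with 5 of 6 PBS arrays above background, and Tnf by 1.42. Targets that feed back on NF-kappaB followed, with Tnfaip3 up by 1.07, Nfkbiz by 0.82 and Nfkbia by 0.58, and the inflammatory caspases Casp4 and Casp1 rose by 1.29 and 0.89. The receptor gene Il1r1 changed by 0.52 and did not pass (adjusted p = 0.263). Il1b changed by 0.94 in CD11B+ cells, where it was not called, and the responses differed by 1.90 (adjusted p = 0.00274), while its signal in PBS cells was higher in CD11B+ than in O4+ cells by 6.43.

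Of 31 chemokine and chemokine receptor genes 10 rose, with a median of 0.56. The neutrophil-attracting Cxcl1 ran from 4.55 to 5.94 (median 5.40) in PBS and from 6.94 to 8.14 (median 7.42) in IL1B, 4.05-fold (adjusted p = 0.00145) without overlap. Ccl3 and Ccl4, which recruit myeloid cells, rose by 1.44 and 1.22, Ccl2 by 0.86 and the interferon-induced Cxcl10 by 1.45. Ccl8 rose by 4.22 (adjusted p = 0.00374), with 1 of 6 PBS arrays above background. For 7 of the 31 genes the response was larger in O4+ than in CD11B+ cells, and for 2 it was smaller, against 6.19% and 4.59% of all genes. The signal in PBS cells was higher in CD11B+ cells for 23 of 31, by a median of 4.13.

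Complement genes rose in 9 of 18 cases with a median of 0.67, among them Cfb (2.15, with 5 of 6 PBS arrays above background) of the alternative pathway, C4b (1.37) and the 3 chains of C1q (C1qa, C1qb and C1qc, 0.64 to 0.70). The C1q chains had changed by 1.64 to 1.79 at P5, and the difference between ages passed for each. In PBS cells 13 of 18 complement genes had more signal in CD11B+ than in O4+ cells, by a median of 2.78. Of 18 genes of activated microglia 10 rose, with a median of 0.83. Clec7a, a receptor for fungal glucans, ran from 4.2 to 5.21 (median 5.03) in PBS and from 7.24 to 9.21 (median 8.40) in IL1B, 10.3-fold (adjusted p = 0.000778), with 5 of 6 PBS arrays above background. Itgax, the integrin CD11c, ran from 4.81 to 5.98 (median 5.32) and from 6.51 to 9.25 (median 7.77), 5.44-fold. Both groups were apart for both genes. Spp1 (2.90), Gpnmb (2.54), Lpl (0.96) and Apoe (0.73) rose as well, the first 2 also with 5 of 6 PBS arrays above background. Itgax had an adjusted p of 0.0684 with the slide as a block, and 5 of 18 genes of this list rose then. In PBS cells 17 of 18 had more signal in CD11B+ than in O4+ cells, by a median of 3.95.

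Immediate early genes, which respond within minutes to stimulation and also to the handling of live cells, rose in 7 of 11 cases, with a median of 0.76. Fos ran from 9.59 to 10.25 (median 9.88) in PBS and from 10.66 to 11.13 (median 10.77) in IL1B, a change of 0.93 (adjusted p = 0.00168), and Atf3 ran from 9.56 to 10.18 (median 9.93) and from 10.83 to 11.58 (median 11.22), a change of 1.36. Neither overlapped. Their changes in CD11B+ cells were 0.05 and 0.43, and the response in O4+ cells was larger in 5 of 11 genes, against 6.19% of all genes. All 11 had more signal in CD11B+ cells.

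Acute phase and glucocorticoid genes, by contrast, had moved mainly at P5. Of 17 acute phase genes 4 rose at P10 and 11 at P5, against 3.62% and 4.94% of all genes. The medians were 0.43 and 2.60. The response was smaller at P10 in 12, against 6.93% of all genes with a smaller or more negative response. Lcn2, the iron-binding lipocalin, ran from 5.81 to 6.37 (median 5.93) in PBS and from 5.47 to 6.77 (median 6.54) in IL1B at P10, with overlap and no call (change 0.38; adjusted p = 0.3), after a change of 6.64 at P5. The 4 that rose were all serpins, Serpina3g (3.33), Serpina3f (1.64), Serpina3i (1.12) and Serpina3n (0.72), with 5 of 6 PBS arrays above background for Serpina3g and Serpina3i, of which the first 3 had changed by 4.98 to 6.75 at P5. None of 9 glucocorticoid response genes passed at P10, where 3.62% of all genes were higher and 1.71% lower. At P5 7 were higher, against 4.94% of all genes. Fkbp5 changed by 0.09 after 1.30 at P5 (difference -1.21; adjusted p = 7.1e-07).

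**Figure D3:**
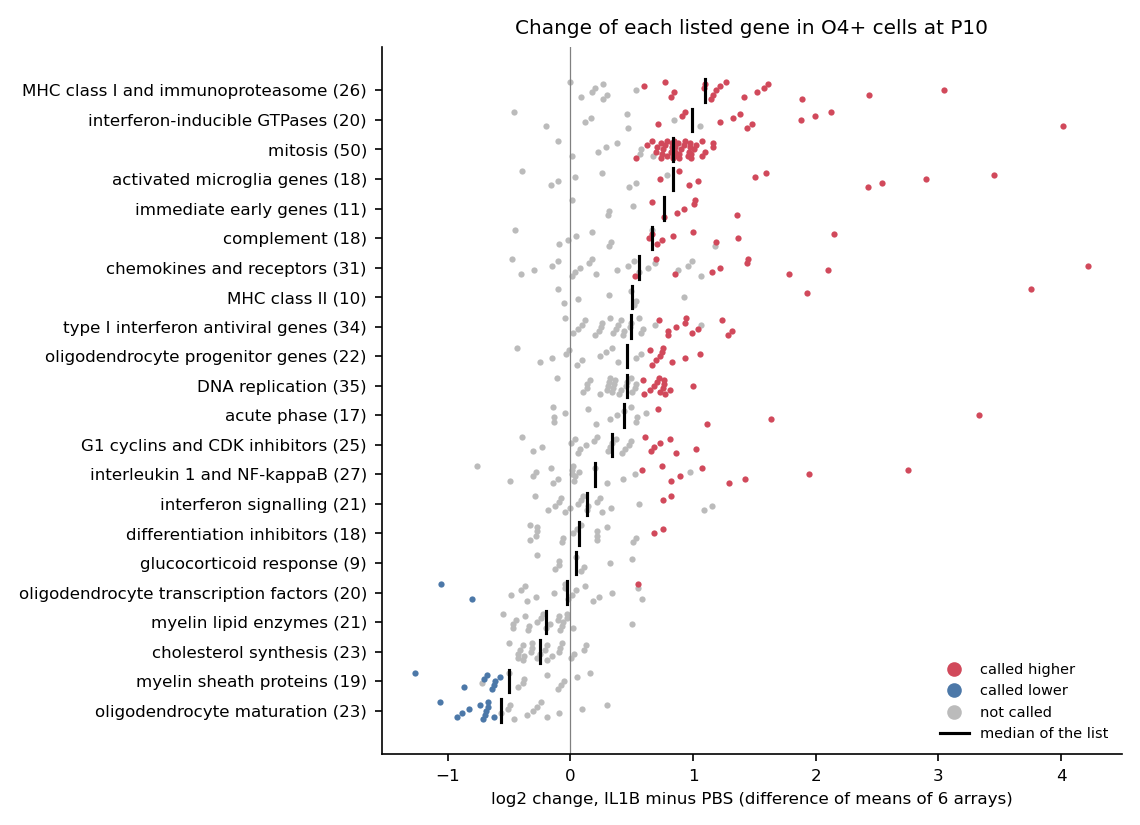
Log2 change of each listed gene between 6 IL1B and 6 PBS arrays, 1 probe per gene, with lists in the order of their medians and the number of measured genes in brackets; red and blue points passed the test and the 1.5-fold limit, and black bars mark medians. Most mitosis genes lie close to their median of 0.84, whereas the immune lists are more spread, and the calls in the 2 lists of myelin sheath and maturation genes are all falls.

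Genes of the myelin sheath fell. Of 19 genes 8 fell and none rose, with a median of -0.50 (-0.80 and 12 falls at the 75th percentile, -0.78 and 11 falls in the deposited matrix), and the mean level lay between 14.27 and 14.39 in PBS and between 13.70 and 14.17 in IL1B. Opalin, a membrane protein of myelinating oligodendrocytes, ran from 10.46 to 10.84 in PBS and from 9.08 to 10.16 in IL1B, a fall of 2.61-fold by medians (adjusted p = 0.00224). Mog, a glycoprotein on the outer face of myelin, ran from 12.73 to 13.50 (median 13.09) in PBS and from 11.70 to 12.53 (median 12.27) in IL1B, a change of -0.87 (adjusted p = 0.00733). Neither overlapped. Cldn11, the tight junction protein of myelin, ran from 16.36 to 16.61 (median 16.48) and from 15.70 to 16.08 (median 15.86), a change of -0.62 (adjusted p = 0.0012). Mal, Mobp, Tspan2 and the connexin Gjc3 were also called, at -0.58 to -0.71.

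Other myelin protein genes did not pass the 1.5-fold limit. Mbp, the basic protein that compacts myelin, changed by -0.72 with an adjusted p of 0.0221 but a ratio of medians of 0.686. Mag changed by -0.43 (adjusted p = 0.0405) and Cnp by -0.38 (adjusted p = 0.0275). At P5 1 of 19 was lower, against 1.80% of all genes, with a median of -0.34. For 1 gene the interaction with age passed, with the more positive response at P10, against 12% of all genes. In CD11B+ cells the level in PBS was lower by a median of 5.28. There 12 of 19 were lower with IL1B at P10, against 1.23% of all genes, with a median of -1.04.

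Maturation genes fell as well, in 11 of 23 cases with a median of -0.57, and the mean level lay between 12.09 and 12.34 in PBS and between 11.37 and 12.01 in IL1B. Aspa, which releases acetate for myelin lipids, ran from 9.78 to 10.37 (median 10.27) in PBS and from 8.47 to 9.73 (median 9.16) in IL1B, 2.15-fold lower (adjusted p = 0.00571). Car2, a carbonic anhydrase of oligodendrocytes, ran from 12.18 to 12.53 (median 12.49) and from 11.65 to 11.90 (median 11.77), a change of -0.67 (adjusted p = 0.000909). Both sets of arrays stood apart. Ndrg1, S1pr5, Tppp, Gsn and Gpr37 changed by -0.62 to -0.88, all called. The response was more negative at P10 than at P5 in 4 of 23 genes, against 6.93% of all genes. With the slide as a block 5 of 19 sheath genes and 8 of 23 maturation genes fell. The medians were -0.51 and -0.65 within the first slide and -0.47 and -0.57 within the third slide. Without the 3 IL1B arrays of the second slide none and 2 fell, and the medians were -0.48 and -0.615.

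Lipid synthesis moved little. None of 21 myelin lipid enzymes and none of 23 cholesterol synthesis genes passed in either direction, against 3.62% of all genes higher and 1.71% lower, with medians of -0.20 and -0.24. For both lists, however, the mean level was lower on all 6 IL1B arrays than on any PBS array, from 12.46 to 12.66 against 12.66 to 12.95 for cholesterol synthesis. Hmgcs1, which makes the precursor of mevalonate, changed by -0.31 (adjusted p = 0.0303) with a ratio of medians of 0.82, and Sqle, squalene epoxidase, by 0.00 (adjusted p = 0.983). Scaling to the 75th percentile made the calls 5 and 2 falls.

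Progenitor genes rose, in 9 of 22 cases with none lower and a median of 0.46. Pdgfra, the receptor for the growth factor that keeps OPCs dividing, ran from 13.98 to 14.93 (median 14.50) in PBS and from 15 to 15.71 (median 15.39) in IL1B, a change of 0.94 (SE 0.17; adjusted p = 0.00672) without overlap. Cspg4, the NG2 proteoglycan of progenitors, ran from 13.02 to 14.05 (median 13.57) and from 13.91 to 14.90 (median 14.35), a change of 0.76 (adjusted p = 0.0288) with overlap. Fabp7 (0.83), Ednrb (0.70), Cspg5 (0.73), Ncan (0.65), Pcdh15 (0.67), Mmp15 (0.74) and Rlbp1 (1.06) also rose. Several of these, Fabp7, Ednrb, Ncan and Rlbp1 among them, are also known from astrocytes, whose markers rose by a median of 0.54 as given above.

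At P5 none of the 22 progenitor genes passed, against 4.94% of all genes higher and 1.80% lower, with a median of -0.15. The response at P10 was more positive in 12 of 22, against 12% of all genes, and for Pdgfra the difference was 1.00 (adjusted p = 0.00092). In CD11B+ cells at P10 2 were lower and none higher, against 1.23% and 1.46% of all genes. The response in O4+ cells was more positive in 12, against 6.19% of all genes. The count depended on scaling: at the 75th percentile 3 rose and 1 fell, and with the deposited matrix values 6 rose and 1 fell. With the slide as a block 6 rose, and the median was 0.36 within the first slide and 0.66 within the third slide. Without the 3 IL1B arrays of the second slide none passed the test, and the median was 0.48.

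Of 20 transcription factors of the lineage 1 rose and 2 fell, against 3.62% of all genes higher and 1.71% lower. Nkx6-2, a homeodomain factor of maturing oligodendrocytes, ran from 10.01 to 10.65 (median 10.25) in PBS and from 8.82 to 9.57 (median 9.25) in IL1B, a change of -1.06 (adjusted p = 0.00169) without overlap. Klf9, a thyroid hormone and glucocorticoid target, fell by 0.80 on the log2 scale (adjusted p = 0.00303) after a change of 0.90 at P5, a difference of -1.70 (adjusted p = 3e-07). Sox11, a factor of immature neural cells, rose by 0.55. The lineage factors Olig1 and Olig2 changed by 0.23 (adjusted p = 0.0762) and 0.34 (adjusted p = 0.0196, below the fold limit), Sox10 by 0.01 (adjusted p = 0.968) and Myrf, the master regulator of myelin genes, by -0.49 (adjusted p = 0.17). Among 18 inhibitors of differentiation 2 rose and none fell, against 3.62% of all genes higher and 1.71% lower. The median was 0.07, with 11 changes positive and 7 negative. Id2 rose by 0.76 (adjusted p = 0.00225) and the Notch target Hes5 by 0.68 (adjusted p = 0.0127).

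Apart from the lists, the largest falls were found in genes of mixed function. Kcne4, an accessory subunit of potassium channels, ran from 8.90 to 9.84 (median 9.48) in PBS and from 6.84 to 8.63 (median 7.20) in IL1B. It was 4.85-fold lower by the ratio of medians (adjusted p = 0.00774). Its log2 change was -1.85 over all 12 arrays, -2.48 within the first slide and -0.40 within the third slide. Il23a, the p19 subunit of interleukin 23, ran from 8.82 to 9.53 (median 9.08) and from 7.40 to 8.12 (median 7.78), 2.47-fold lower (adjusted p = 0.00123). Neither overlapped, and neither was called at P5, where the changes were 0.17 and 0.24. Lpar1, a lysophosphatidic acid receptor of oligodendrocytes, fell 2.22-fold and Nkain2, a partner of the sodium pump, 2.27-fold. Tnni1, a slow muscle troponin, fell 2.82-fold, but without single arrays its adjusted p missed the threshold for 4 of the 12 (PBS replicates 2 and 5, IL1B replicates 4 and 5, changes of -1.24, -1.22, -1.22 and -1.31). Lct, the lactase gene, rose 4.44-fold and was not called at P5 or in CD11B+ cells, with differences of 1.84 and 1.64 (adjusted p = 0.00236 and 0.0245). These genes were named for the size of their change at P10, which enters each of these differences.

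**Figure D4:**
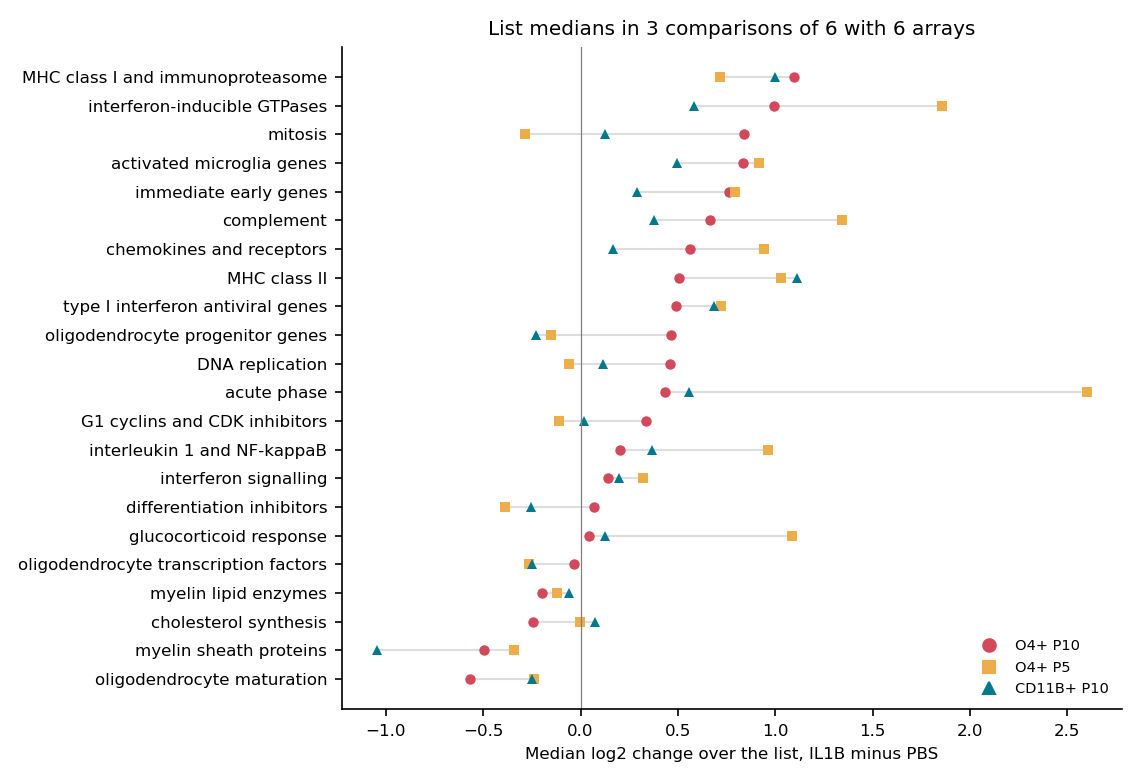
Median log2 change over each list between 6 IL1B and 6 PBS arrays in O4+ cells at P10 (circles), O4+ cells at P5 (squares) and CD11B+ cells at P10 (triangles). Among the pathway lists shown, mitosis lies at 0.84, -0.28 and 0.12 and progenitor genes at 0.46, -0.15 and -0.23, while acute phase genes lie highest at P5, at 2.60.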

How the data were processed

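The authors labelled total RNA with Cy3, hybridised 1 Agilent array per sample and ran Feature Extraction (version 10.7.3.1, per the file headers), whose probe positions are in mm9. The deposited scanner files hold the background-subtracted intensity of each spot, and the deposited matrix holds the ratio of that intensity to the array median on a linear scale (largest deviation 1.86e-05 in log2). Here log2 intensities of 59305 spots underwent quantile normalization over the 24 O4+ arrays, and spots of a probe were averaged (55681 probes). Changes within CD11B+ cells came from normalization over the 24 CD11B+ arrays. Differences of level or response between the cell types came from normalization over all 48 arrays. The changes given for each cell type therefore do not subtract exactly to those differences. No spot was saturated, 5365 outlier spots were left out, and 43 probes lacked a value on an array. Precision is limited by 6 arrays a group.

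The test was limma's (version 3.58.1, R 4.3.3, two-sided, Benjamini-Hochberg over all probes). The paper's methods name an equal-variance test, which was an alternative. Responses at P10 and P5, or in O4+ and CD11B+ cells, were compared by interaction terms without a fold limit. The comparison between cell types took all arrays as independent, although both cell types were sorted from the same animals. Genes were named through RefSeq accessions (27235 probes), symbols (3581) or synonyms (565), and 31381 probes carry a symbol. Named genes are members of the lists, or the 15 largest rises and falls among 418 and 234 called probes above background on all 12 arrays whose groups did not overlap. The samples, lists and rules were chosen with earlier results of these data known, so lists are described by counts and medians without a test.

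Alternatives were other scalings, normexp background correction with an offset of 50, a background filter, no fold limit, other fits, slide, scan date or replicate number as a block, and leaving out each array. The random slide block, spots averaged before normalization, and leaving out the second scan date or the slide without PBS arrays were chosen after seeing the data. The scripts were tested on simulated data. Some members of the lists enter the counts and medians but are not reported here by name.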

Additional observations from a re-analysis of the deposited data

Results flagged for a closer look

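Among 124 sets of 6 arrays checked (30 genes and 32 lists in each group), 11 held an array that stood apart from the other 5, and about 1 set in 20 does so by chance. The gap to the nearest array, as a share of the range of the set, was 0.796 for Plbd1 (IL1B replicate 4, lowest), 0.666 for Adamtsl4 (PBS replicate 2, highest), 0.722 for Rab44 (IL1B replicate 2, lowest), 0.719 for Aspa (PBS replicate 3, lowest) and 0.677 for Rnf122 (PBS replicate 1, lowest). For lists it was 0.659 for MHC class I and 0.657 for type I interferon antiviral genes, both highest on IL1B replicate 3, and 0.696 for MHC class II (IL1B replicate 4, lowest). On the slide of the second scan date it was 0.757 for oligodendrocyte transcription factors (PBS replicate 6) and 0.639 and 0.67 for differentiation inhibitors (PBS and IL1B replicate 6), all lowest.

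Of the 30 genes named by rank, 17 responded differently at P10 and P5 by the interaction test, against 12% of all genes more positive and 6.93% more negative at P10; the 30 were chosen for their change at P10, which enters every such difference and the one between cell types. Each value is the log2 response at P10 minus that at P5. Rises were smaller at P10 for Gbp2 (-2.29), Tgtp2 (-1.37) and Igtp (-1.16) and larger for Itgax (1.95), Lct (1.84), Cxcl1 (1.01) and H2-Q8 (0.813). The falls of Adamtsl4 (-2.21), Kcne4 (-2.01), Itgad (-1.72), Rab44 (-1.63), Il23a (-1.58), Rtkn2 (-1.38), Nkain2 (-0.993), Angpt4 (-0.827), Lpar1 (-0.764) and Rnf122 (-0.696) were more negative at P10. Adamtsl4 had risen by 0.67 at P5. Angpt4 has 3 probes, of which 1 was called at P10 and another changed by 0.01. Gpr61, named below, has 2 probes, of which 1 was called and the other changed by 0.03.

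Between cell types at P10, 13 of the 30 differed, against 6.19% of all genes more positive and 4.59% more negative in O4+ cells, each value being the response in O4+ minus that in CD11B+ cells. It was more positive in O4+ cells for Cd74 (1.99), Il1b (1.9), Cxcl1 (1.73), Lct (1.64), Igtp (1.51), Gvin1 (1.27), Mpeg1 (1.15) and Psmb9 (0.967), and more negative for Rab44 (-2.22), Adamtsl4 (-1.68), Gpr61 (-1.45), Aspa (-1.42) and Rtkn2 (-1.38).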

How the results depend on the processing

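The medians of 8 lists (mitosis, DNA replication, MHC class I, GTPases, myelin sheath, maturation, progenitor genes and cholesterol synthesis) and the changes of the 30 genes named by rank kept their direction under every alternative run. Of the other 24 lists, 5 with medians near 0 changed sign in at least 1 alternative: endothelial cells, lymphocytes, ependyma and choroid plexus, glucocorticoid response and oligodendrocyte transcription factors. Scaling to the 75th percentile gave 2058 probes lower, and the deposited matrix values gave 1568. Normexp gave 607 higher and 370 lower, no fold limit 3012 and 3026, the slide as a fixed block 917 higher, and leaving out the 3 IL1B arrays of the slide without PBS arrays, which leaves 3 of 6, 215 and 80. Without single arrays the counts ran from 1028 to 1510 higher and from 528 to 904 lower. The difference of responses between ages passed for 7327 probes (4368 more positive at P10), and for 3898 with the slide as a block; that between cell types passed for 4209, and for 10635 at the 75th percentile, 9520 with the matrix values and 2324 with the slide as a block. Without single arrays these ran from 6305 to 8617 and from 3114 to 5666. The causes were not tested.

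Among all 32 lists 7 medians moved at the 75th percentile, 6 with the matrix values, 8 with normexp and 3 with the mean over all probes of a gene. Among the 8 lists named first these were, at the 75th percentile, cholesterol synthesis (-0.35), myelin sheath (-0.80) and progenitor genes (0.23), with the matrix values, myelin sheath (-0.78) and progenitor genes (0.26), and with normexp, MHC class I (0.85) and the GTPases (0.58). The mean over all probes of a gene gave 0.92 for MHC class I. Without single arrays the medians ran from 0.79 to 0.89 for mitosis, 0.41 to 0.52 for DNA replication, 1.01 to 1.13 for MHC class I, 0.86 to 1.09 for the GTPases, -0.54 to -0.46 for myelin sheath, -0.64 to -0.45 for maturation, 0.39 to 0.54 for progenitor genes and -0.27 to -0.20 for cholesterol synthesis. Of the genes named by rank, Gpr61 missed the threshold with normexp, Itgax and Tnni1 with the slide block, Tnni1 and Rtkn2 with the replicate block, and 12 of 30 without the slide lacking PBS arrays.

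Replicate numbers did not pair the samples: the correlation of same-numbered deviations lay between -0.02 and 0.03 for numbers 1 to 5 and was 0.48 for number 6. A replicate block gave 1096 probes higher and 777 lower, 7194 for the difference between ages and 6183 for that between cell types. With O4+ and CD11B+ arrays of the same treatment and number as a random block, 6197 probes differed between cell types. Probes near background limit all folds from low intensities: Mpo and Ltf, neutrophil genes above background on no PBS array, were at least 1.14-fold and 1.42-fold higher with IL1B.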

Other observations

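Single members of other marker lists were called, where 3.62% of all genes were called higher, and no change of a cell type is read from them. Gzma, a granzyme of cytotoxic lymphocytes, ran from 2.53 to 4.44 (median 3.91) in PBS and from 4.54 to 7.33 (median 6.23) in IL1B, a log2 change of 2.17 (adjusted p = 0.0126), with 2 of 6 PBS arrays and 6 of 6 IL1B arrays above background. It was the single call among 15 lymphocyte markers, 6 of which were above background on no array. Hba-a1, an alpha globin gene, changed by 1.20 (adjusted p = 0.0427) as the single call among 5 erythroid markers, and no erythroid marker was called under the equal-variance test, with a replicate block, without the second scan date or without the 3 IL1B arrays of the slide lacking PBS arrays. Of 12 neuronal markers Dcx, a microtubule protein of migrating neurons, changed by 0.61 (adjusted p = 0.00584) and Gad1, a GABA-synthesising enzyme, by 0.71 (adjusted p = 0.0115).

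The tissue macrophages of the brain's borders gave 1 call of 9, Clec10a at 0.98 (adjusted p = 0.012), against 3.62% of all genes called higher. The median over the list was -0.17, against 0.86 at P5.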
